A study of Homo sapiens with 18 samples.

Results

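The long noncoding RNAs described here are the 101 rows of the deposited table whose gene symbol is LINC followed by digits and whose mean normalised count over all 18 libraries was at least 10. The table holds 559 such LINC rows among 55765 symbols, so the 101 members are 18.1% of them, and 204 of the 458 rows left out were at 0 in every library. The members were chosen by their level, averaged over all groups. The rows nearest the limit were LINC00449 (mean 10.12), LINC00313 (10.33) and LINC00920 (11.45) just inside, and LINC00629 (9.42), LINC00568 (9.351) and LINC00574 (8.818) just outside. A transcript present in some groups and absent from others can enter through the groups where it is high, and 13 members had a mean under 10 over the 9 DMSO libraries while 4 had a mean under 10 over the 9 tazemetostat libraries. Of the rows left out, 22 had a mean of at least 10 in some group.

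The libraries come from G401, an established malignant rhabdoid tumour line. The study compared 3 lines: a control line cut by CRISPR/Cas9 at the AAVS1 safe harbour and wild type for RB1 (WT), and E1 and F2, which are separate clones with both RB1 alleles deleted. Cultures of each were kept for 11 days in DMSO alone or in 10 µM tazemetostat, which blocks the methyltransferase activity of EZH2. This gives 6 groups of 3 biological replicates. Each RB1-deleted line is 1 clone, so an effect of the deletion and a difference between clones cannot be told apart within it.

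LINC symbols are given to intergenic noncoding RNAs with no better name. Like messenger RNAs, most are transcribed by RNA polymerase II, spliced and polyadenylated, and many are restricted to few cell types. EZH2 is the catalytic subunit of Polycomb repressive complex 2, which places the repressive mark H3K27me3 at silent developmental genes, and noncoding transcription units can carry the mark too. Rhabdoid tumours lack SMARCB1, a subunit of the SWI/SNF remodelling complex that acts against Polycomb.

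Library depth was 25709489 to 39314860 reads. SMARCB1 had 0 reads in all 18 libraries and SMARCA4 was present in all. The RB1 values of the 12 clone libraries reached at most 1044.887 normalised counts, below the lowest WT library at 2300.415, so RB1 RNA was reduced and not absent. Of the endothelial markers measured, VWF reached 38 reads and CDH5 29 reads, both highest in F2 with tazemetostat. The leukocyte markers PTPRC and CD3E each reached 2 reads. The part of other cells in the members' values was not tested. MALAT1, a nuclear noncoding RNA, ranged from 7524.9 to 28927.4 normalised counts and varied within groups as well as between them. The 101 members together took 0.1006 to 0.1534% of the reads of a library.

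The promoter windows of 6 members are printed here to show the CpG counts described below. Whether the sequences bear on the expression values was not tested. The first windows are those of 2 CpG-rich and 2 CpG-poor members that were silent or low in DMSO and rose with tazemetostat (LINC00842, LINC00511, LINC00595 and LINC00327). The other windows are those of 1 member that fell in every line (LINC00478) and the most abundant member (LINC00657). Each runs 5′ to 3′ on the gene's own strand, from 250 bases before to 50 after the RefSeq start on GRCh38.p14, with every CG dinucleotide in capitals. The build is that of the RefSeq table, not the hg19 build named in the submitters' processing notes. LINC00842 lies at chr10:46398112-46398411 (+), LINC00511 at chr17:72640423-72640722 (-), LINC00595 at chr10:78267092-78267391 (+), LINC00327 at chr13:23469262-23469561 (+), LINC00478 at chr21:16535322-16535621 (+) and LINC00657 at chr20:36050911-36051210 (-).
LINC00842: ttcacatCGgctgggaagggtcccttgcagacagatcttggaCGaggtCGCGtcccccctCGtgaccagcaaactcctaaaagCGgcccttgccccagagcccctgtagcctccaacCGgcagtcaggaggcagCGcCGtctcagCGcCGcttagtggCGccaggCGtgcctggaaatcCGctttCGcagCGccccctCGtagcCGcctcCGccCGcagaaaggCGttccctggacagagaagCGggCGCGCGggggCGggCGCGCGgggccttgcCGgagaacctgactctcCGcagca
LINC00511: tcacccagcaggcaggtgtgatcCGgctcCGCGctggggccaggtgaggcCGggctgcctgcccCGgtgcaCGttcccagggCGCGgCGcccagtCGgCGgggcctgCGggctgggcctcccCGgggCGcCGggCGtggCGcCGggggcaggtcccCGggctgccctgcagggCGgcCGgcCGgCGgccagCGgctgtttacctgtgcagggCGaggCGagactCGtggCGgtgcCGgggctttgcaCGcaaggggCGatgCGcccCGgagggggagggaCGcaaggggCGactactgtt
LINC00595: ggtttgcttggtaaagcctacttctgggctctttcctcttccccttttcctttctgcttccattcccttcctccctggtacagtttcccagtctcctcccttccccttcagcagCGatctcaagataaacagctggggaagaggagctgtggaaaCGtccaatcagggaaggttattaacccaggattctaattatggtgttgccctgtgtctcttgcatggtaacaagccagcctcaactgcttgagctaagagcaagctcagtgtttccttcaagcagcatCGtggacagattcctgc
LINC00327: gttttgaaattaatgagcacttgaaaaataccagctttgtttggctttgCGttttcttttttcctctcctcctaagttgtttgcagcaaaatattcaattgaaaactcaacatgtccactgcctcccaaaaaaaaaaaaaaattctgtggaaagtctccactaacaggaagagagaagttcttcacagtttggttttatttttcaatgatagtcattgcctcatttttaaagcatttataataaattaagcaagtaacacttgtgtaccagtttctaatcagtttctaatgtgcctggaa
LINC00478: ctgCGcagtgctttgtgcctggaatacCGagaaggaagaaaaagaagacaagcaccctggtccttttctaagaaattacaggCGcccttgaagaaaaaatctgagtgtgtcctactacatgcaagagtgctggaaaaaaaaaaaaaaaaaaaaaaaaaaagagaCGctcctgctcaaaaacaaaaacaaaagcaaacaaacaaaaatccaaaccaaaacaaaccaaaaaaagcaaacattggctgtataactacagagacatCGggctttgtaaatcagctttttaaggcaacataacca
LINC00657: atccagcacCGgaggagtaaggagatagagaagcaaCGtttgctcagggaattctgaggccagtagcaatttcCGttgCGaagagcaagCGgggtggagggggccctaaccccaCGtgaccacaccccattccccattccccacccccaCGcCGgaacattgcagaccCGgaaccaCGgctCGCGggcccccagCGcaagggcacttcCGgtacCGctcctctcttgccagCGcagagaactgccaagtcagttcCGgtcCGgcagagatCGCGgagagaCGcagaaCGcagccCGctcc

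The 300 bases of LINC00842 hold 31 CG dinucleotides and those of LINC00511 hold 35, against 3 in LINC00595, 1 in LINC00327, 5 in LINC00478 and 23 in LINC00657. CG occurs in 96.0% of the 35116 promoters of that length in the table, so it is the number that differs. The letters TATAAA occur in none of these 6 windows on the printed strand, and in 7.33% of all promoters.

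Most members were scarce. The median of their means was 44.93 normalised counts, 52 had a mean under 50, and 10 had a mean of at least 1000. LINC00657, also named NORAD, a cytoplasmic RNA that binds Pumilio proteins, had a mean of 18368.5 and took 31.0 to 54.2% of the members' reads in a library. LINC00052 followed with a mean of 2981.0, almost all of it in WT and F2, then LINC00667 (1814.5), LINC00963 (1792.6) and LINC00094 (1547.0). Scaled to exonic length from GENCODE v29, available for 91 members, LINC00657 also led with a mean level of 3440.4 normalised counts per kb, ahead of LINC00052 (1516.3), LINC00493 (774.7) and LINC00998 (667.0).

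With tazemetostat, 24 of the 101 members changed in WT cells, 21 in clone E1 and 25 in clone F2, against 21.3, 15.1 and 17.0% of all rows tested. In this report a member rose or fell if its adjusted p was under 0.05 (limma, Benjamini-Hochberg over all 16154 rows with a mean of at least 10) and its change was at least 1 on the log2(normalised count + 1) scale. In WT 15 members rose and 9 fell, against 14.5% and 6.77% of all rows tested. In E1 13 rose and 8 fell, against 11.3% and 3.78%, and in F2 16 rose and 9 fell, against 13.3% and 3.71%. As shares of the members these are 14.9, 12.9 and 15.8% higher and 8.91, 7.92 and 8.91% lower. The share that rose lies near the background of all rows, and the share that fell lies above it in the clones. That gap was not tested. With 1 library left out, 6 to 9 members fell in E1 and 6 to 12 in F2. LINC00304, LINC00634 and LINC00665 averaged under 10 over the 9 tazemetostat libraries (8.803, 9.483 and 8.733). They passed the level of 10 only through DMSO, so their falls are in part built into the choice of members. The members' median log2 changes were -0.05, 0.04 and 0.07 for WT, E1 and F2, beside 0.03, 0.02 and 0.02 over all rows. In bulk RNA, a change in the number of cells that hold a transcript and a change in the RNA per cell cannot be told apart.

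Across the lines, 20 members rose in at least 1 line and 16 fell in at least 1. None rose in one line and fell in another. The 10 that rose in all 3 lines were LINC00327, LINC00479, LINC00511, LINC00595, LINC00643, LINC00698, LINC00842, LINC00856, LINC00958 and LINC00968, and 9.78% of all rows tested did the same. LINC00478 and LINC00982 fell in all 3 lines, as did 1.36% of all rows. LINC00242, LINC00431, LINC01024 and LINC01088 rose in 2 lines, and 65 members passed the threshold in no line. Except for the calls in all 3 lines, these counts over lines have no share of all rows tested beside them. They are a description only.

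**Figure D1:**
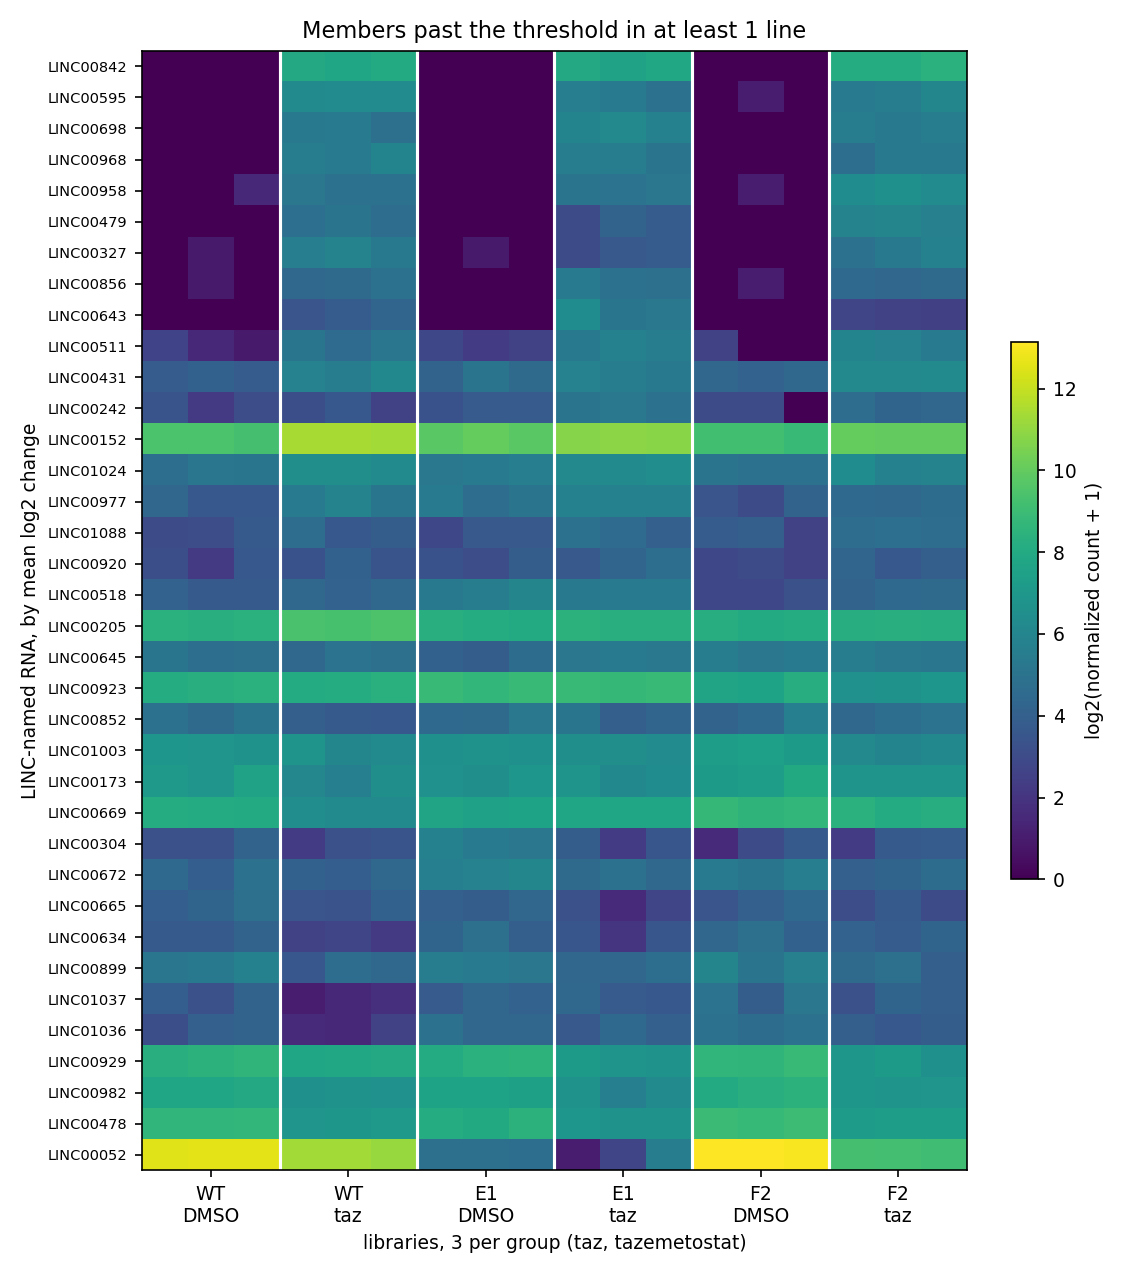
Levels of the 36 members past the threshold in at least 1 line. Each row is a member and each column a library, in 6 groups of 3 separated by white lines; colour is log2(normalised count + 1). The 9 uppermost rows are at or near 0 in every DMSO library, and LINC00052 at the foot is high in WT and F2 and low in E1.

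Of the 10 that rose in every line, 9 had 3 reads or fewer in each of the 9 DMSO libraries. They passed the level of 10 only through the tazemetostat libraries, so their rise is in part built into the choice of members, and 3.89% of all rows tested share the pattern. LINC00842 was the most abundant of them. It had 0 reads in all 9 DMSO libraries. With tazemetostat it had 239.5, 221.7 and 258.6 normalised counts in WT, 240.6, 191.5 and 234.6 in E1, and 279.6, 281.6 and 335.8 in F2. Treated and control groups did not overlap in any line, and the treated levels of WT and E1 overlapped while those of F2 were higher. The log2 changes were 7.91, 7.80 and 8.22 (SE 0.18) for WT, E1 and F2 (adjusted p = 3.8e-17, 4.7e-17 and 2.1e-17). Counted against a floor of 3 reads per DMSO library, it was at least 86.9-fold higher in WT, 78.5-fold in E1 and 91.3-fold in F2. LINC00842 lies in a duplicated stretch of chromosome 10 near the annexin A8 gene copies, so reads of near-identical copies could have been split or lost.

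Another 4 members were at 0 reads in all 9 DMSO libraries. LINC00968 had 44.35, 41.15 and 59.11 normalised counts in WT with tazemetostat, 44.72, 46.42 and 32.03 in E1, and 26.21, 39.36 and 38.85 in F2. LINC00698 had 38.43, 41.15 and 28.32 in WT, 60.69, 70.6 and 54.65 in E1, and 46.6, 38.35 and 47.17 in F2. For LINC00968, the treated F2 libraries lay below those in WT and overlapped those in E1. For LINC00698, the treated E1 libraries lay above those in WT and F2, which overlapped, and neither member passed the threshold for a difference in response. LINC00479 had 26.61, 31.8 and 24.63 in WT with tazemetostat, 7.453, 17.41 and 13.19 in E1, and 57.28, 62.58 and 51.8 in F2. LINC00643, typed by RefSeq as a pseudogene of SERTAD4 and so open to reads shared with its parent gene, had 9.855, 13.09 and 18.47 in WT, 83.05, 33.85 and 37.69 in E1, and 5.825, 5.046 and 4.625 in F2. These 2 ran in opposite order: LINC00479 was lowest in E1 and highest in F2, LINC00643 highest in E1 and lowest in F2, without overlap between the lines in either case. The difference in response passed the threshold against WT for E1 in both and for F2 in neither. With edgeR and DESeq2 neither E1 difference was called, and that of LINC00479 was also lost in 5 of 12 fits that left out 1 library (-0.82 without E1 tazemetostat replicate 1).

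LINC00595 and LINC00856, which neighbour each other on chromosome 10 with no protein-coding gene between them in RefSeq, both rose in every line. LINC00595 had at most 1.037 normalised counts in any DMSO library and reached 75.88, 80.44 and 80.05 in WT with tazemetostat, 48.98, 42.55 and 29.21 in E1, and 42.72, 46.43 and 64.75 in F2. LINC00856 went from at most 1.037 to 20.69, 22.45 and 29.56 in WT, 41.52, 29.01 and 28.27 in E1, and 21.36, 19.18 and 22.2 in F2. RPS24, the ribosomal protein gene nearest to LINC00595, stayed under the threshold throughout (log2 change -0.08, 0.01 and -0.26).

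LINC00958 had at most 1.893 normalised counts in DMSO, 36.46, 29.93 and 29.56 with tazemetostat in WT, 31.94, 30.95 and 35.8 in E1, and 83.5, 95.88 and 79.55 in F2, which lay above both other lines. LINC00327 had at most 0.9654 in DMSO, 48.29, 57.05 and 38.18 in WT, 7.453, 11.61 and 13.19 in E1, and 29.13, 38.35 and 53.65 in F2, so that E1 lay below both. LINC00511 was the only one of the 10 above 3 reads in DMSO. Its mean was 3.131 over the 9 DMSO libraries and 43.03 over the 9 with tazemetostat. It too passed the level of 10 only through tazemetostat, so its rise is in part built into the choice of members. Its DMSO values ran from 0 to 6.251 over the 9 libraries and its tazemetostat values from 23.38 to 60.2, with log2 changes of 3.24, 2.97 and 4.87 (SE 0.53). Over the 18 libraries, the members whose log2 level followed LINC00842 most closely were LINC00968 (Pearson's r = 0.995), LINC00698 (0.993) and LINC00595 (0.99). These share the 9 DMSO libraries at or near 0, which sets most of that correlation.

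LINC00478 and LINC00982 fell in all lines. LINC00478 is now named MIR99AHG, the host gene of a microRNA cluster with miR-99a and let-7c. In WT it had 407.0, 408.1 and 423.0 normalised counts in DMSO and 114.3, 121.6 and 135.5 with tazemetostat. In E1 it went from 283.1, 248.1 and 341.9 to 119.2, 105.4 and 106.5, and in F2 from 498.9, 448.1 and 516.9 to 145.6, 164.5 and 159.1. The groups did not overlap in any line, and the log2 change was -1.73, -1.38 and -1.63 (SE 0.12; adjusted p = 2e-10, 7.5e-09 and 5.2e-10). LINC00982 is now PRDM16-DT, the divergent transcript of PRDM16. It went from 209.6, 222.4 and 242.3 to 96.57, 103.8 and 101.0 in WT, from 199.1, 198.9 and 176.3 to 102.2, 49.32 and 74.43 in E1, and from 262.3, 314.3 and 347.0 to 125.2, 110.0 and 112.8 in F2. That is a fall of 2.237-fold, 2.542-fold and 2.653-fold, again without overlap.

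LINC00052 differed most between the lines. In DMSO it had 5867, 6126.9 and 6263.7 normalised counts in WT and 9054, 8779 and 8341.3 in F2, but 27.68, 28 and 26.3 in E1. The E1 level was 222.7-fold below WT (log2 change -7.75 ± 0.63 SE, adjusted p = 3.6e-08). The F2 level was 1.434-fold above WT and did not pass the threshold (log2 change 0.52). With tazemetostat it had 2572, 2526.2 and 2217.9 in WT, 626.2, 590.4 and 557.8 in F2, and 1.065, 5.803 and 47.11 in E1.

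In F2 the fall was 14.75-fold (log2 change -3.88, adjusted p = 4.2e-05). In WT all 3 treated libraries lay below all 3 controls, 2.496-fold on average. The log2 change of -1.32 had an adjusted p of 0.077 in the fit of all groups, where the scatter of the E1 libraries enters the error. It was past the threshold with a pseudocount of 5 (adjusted p = 0.013), with only the WT libraries in the fit (3.3e-08), and with edgeR (1.8e-06) or DESeq2 (0.042). In E1 the groups overlapped, because replicate 3 with tazemetostat lay above every control. The E1 call (log2 change -1.69, adjusted p = 0.036) was lost with edgeR (-0.55, adjusted p = 0.40) and DESeq2 (-0.59, 0.48). It was also lost with only the E1 libraries in the fit (adjusted p = 0.19), without the filter (0.055) and when any E1 library other than replicate 3 with tazemetostat was left out, and without replicate 1 with tazemetostat the log2 change was -0.65.

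NTRK3, the neurotrophin receptor gene nearest to LINC00052, ran alongside it in WT and F2. NTRK3 had 657.7, 723.8 and 788.3 normalised counts in WT with DMSO and 1540.7, 1627.6 and 1740.1 in F2, and 0 in all 3 E1 libraries. With tazemetostat it had 264.1, 252.5 and 269.7 in WT and 204.9, 179.7 and 136.9 in F2, falls of -1.46 and -3.25 on the log2 scale. In E1 it had 1.065, 0.9671 and 7.538, a log2 change of 1.71 where LINC00052 had -1.69, and the library with most NTRK3 was also the one with most LINC00052. In both clones RB1 is deleted, and only E1 of the 2 was low for this pair of genes.

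**Figure D2:**
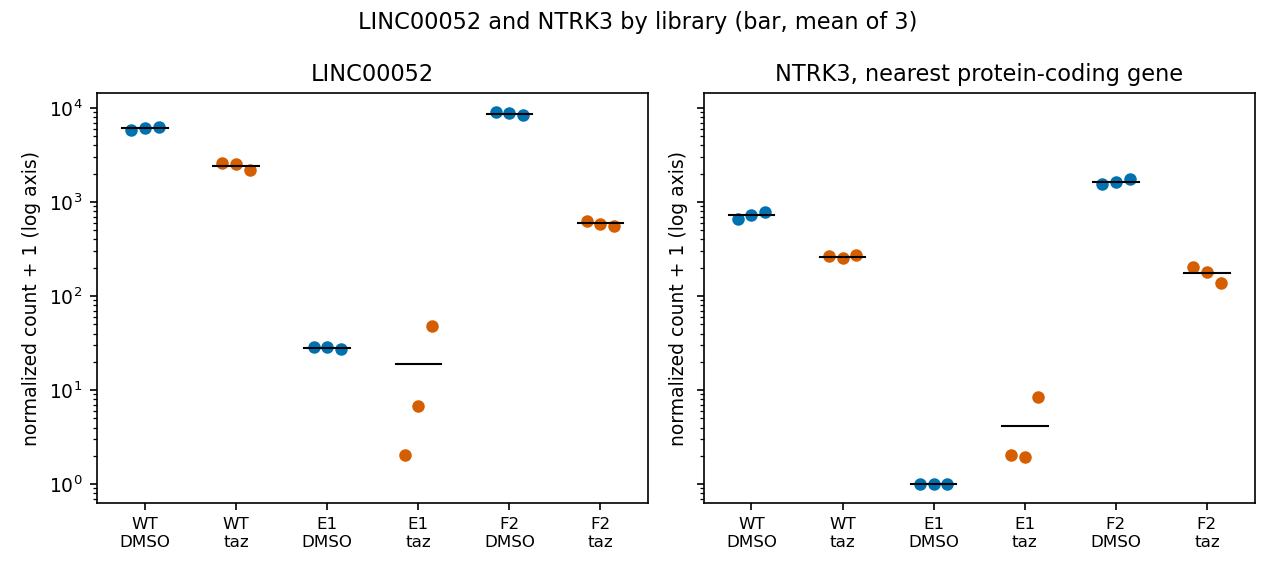
LINC00052 (left) and NTRK3 (right) in every library, as normalised count + 1 on a log axis. Points are libraries, blue for DMSO and orange for tazemetostat, and bars are means of 3; E1 lies far below WT and F2 in both panels, and the E1 tazemetostat libraries scatter from 1.065 to 47.11 for LINC00052.

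The next members were those whose response differed between lines. The difference between the log2 change in a clone and that in WT was tested in the same fit. For E1 it passed in 9 members, 6 higher and 3 lower than WT, against 10.0, 4.79 and 5.21% of all rows tested. For F2 it passed in 8 members, 5 higher and 3 lower, against 7.48, 4.82 and 2.66%. Both comparisons use the same 6 WT libraries, so a feature of those libraries enters both. LINC00152, LINC00669 and LINC01037 passed in both.

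LINC00152, also named CYTOR, is a cytoplasmic RNA studied for its high level in many tumours. In WT it went from 676.1, 673.9 and 604.7 normalised counts to 2699.2, 2701.2 and 2554.1, a rise of 4.07-fold (log2 change 2.02 ± 0.09 SE, adjusted p = 3e-13). In E1 it went from 863.5, 1059.0 and 887.4 to 1710.9, 1837.5 and 1772.3, and in F2 from 568.6, 577.8 and 467.2 to 1069.0, 1030.5 and 1007.3. The groups did not overlap in either clone, but the changes of 0.93 and 0.95 stayed under the fold limit. The response was smaller than in WT by -1.10 in E1 and -1.07 in F2 (SE 0.12; adjusted p = 1.8e-06 and 3.4e-06). The F2 difference was -0.95 when libraries were scaled to the same total. MIR4435-1HG, a near-identical copy elsewhere on chromosome 2, changed by 1.65, 0.97 and 0.84, and the division of reads between the copies is uncertain.

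LINC00669, now MIR924HG, a microRNA host gene, showed the opposite order. In WT it went from 277.8, 272.4 and 263.1 to 86.72, 76.69 and 76.35, a fall of 3.392-fold (log2 change -1.75, SE 0.10, adjusted p = 1.6e-11). In E1 it went from 200.0, 185.3 and 198.7 to 210.8, 218.6 and 216.7, and in F2 from 432.3, 376.6 and 422.3 to 333.0, 272.5 and 286.7. The fall passed the threshold in WT only. Against WT, the response was higher by 1.90 in clone E1 and by 1.29 in clone F2 (adjusted p = 1.3e-08 and 2e-06).

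LINC01036 and LINC01037 lie next to each other on chromosome 1, near PLA2G4A, a cytosolic phospholipase gene. LINC01036 went from 7.861, 15.08 and 17.03 in WT with DMSO to 1.971, 1.871 and 4.926 (log2 change -1.89), and LINC01037 from 13.98, 8.482 and 17.03 to 0.9855, 1.871 and 2.463 (-2.34). In E1 with tazemetostat LINC01037 kept 20.23, 12.57 and 11.31, overlapping its controls at 12.5, 19.31 and 16.56. The response of LINC01037 exceeded that of WT by 2.19 (E1) and 1.49 (F2) on the log2 scale (adjusted p = 0.0035 and 0.045), and the F2 difference was lost with edgeR (adjusted p = 0.07) and in 7 of 12 fits without 1 library (0.064 to 0.13). PLA2G4A went the other way, from 0 reads in all 9 DMSO libraries to tazemetostat means of 37.73 (SD 2.81, n = 3), 74.97 (SD 7.92) and 45.75 (SD 1.29) for WT, E1 and F2.

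LINC00929 fell more in the clones. Its values in WT were 308.3, 346.8 and 389.9 in DMSO and 210.9, 233.8 and 247.5 with tazemetostat. In E1 they were 269.7, 333.0 and 363.4 against 141.6, 110.3 and 101.8, and in F2 403.6, 388.0 and 476.9 against 124.3, 143.3 and 96.2. No groups overlapped within a line. WT, E1 and F2 had log2 changes of -0.59, -1.45 and -1.81 (SE 0.16), and the F2 response differed from that of WT by -1.22 (adjusted p = 0.00054), that of E1 by -0.86 (0.0064), under the fold limit.

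LINC00657 had 17257.8, 17031.2 and 16143.3 normalised counts in WT with DMSO and 28425.5, 29063.6 and 25926.5 with tazemetostat. In E1 it had 15012.9, 12770.7 and 16293.4 against 16807.1, 19852.1 and 18694.0, and in F2 16624.5, 15732.3 and 14830.9 against 16543.2, 16707.8 and 16916.4. WT and E1 libraries separated by treatment, and those of F2 overlapped. WT, E1 and F2 had log2 changes of 0.72, 0.33 and 0.09, each below the limit of 1. The response of E1 differed from that of WT by -0.39 and that of F2 by -0.63 (adjusted p = 0.014 and 0.00053).

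**Figure D3:**
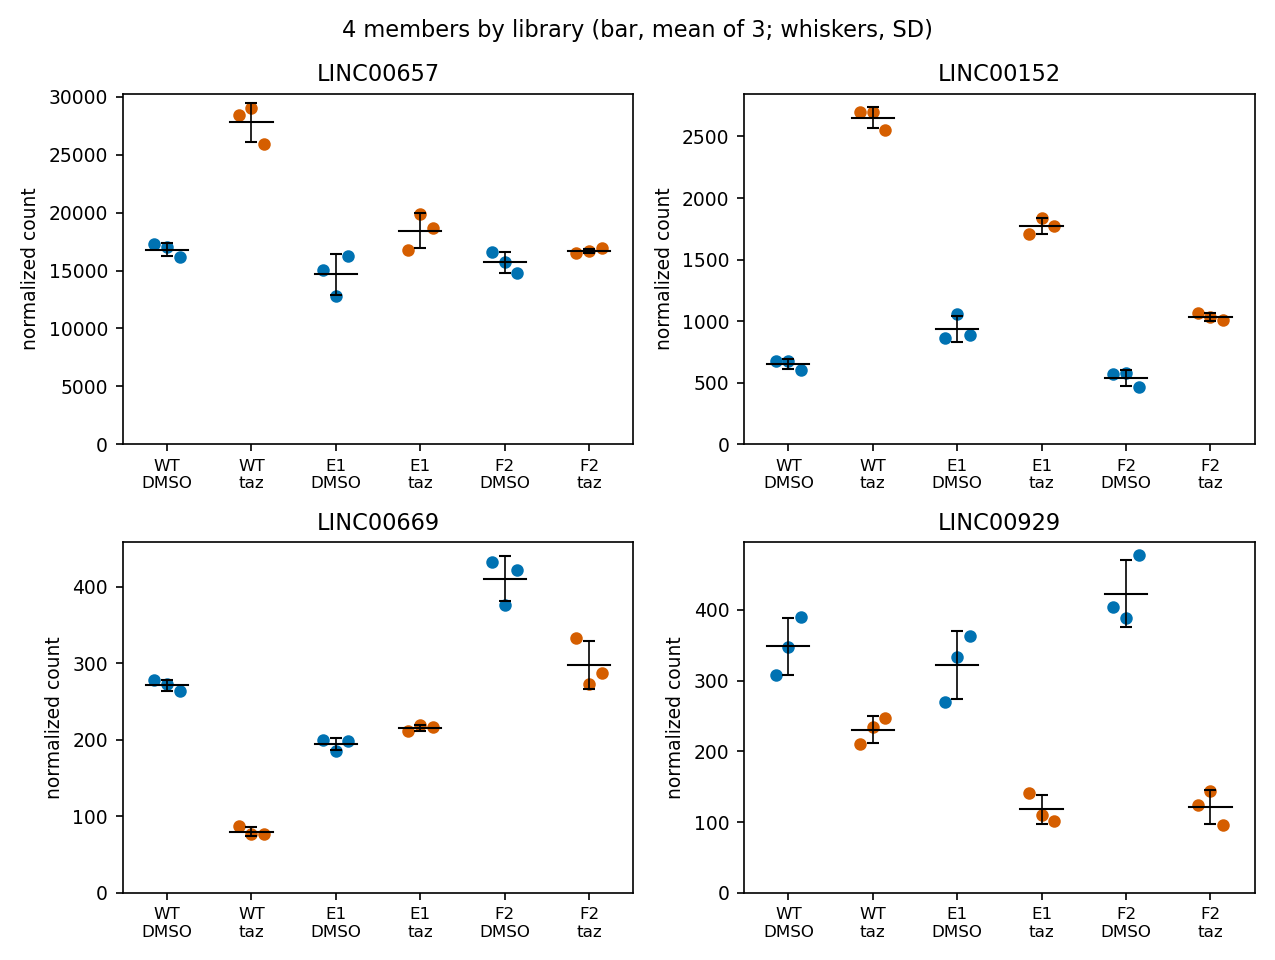
Normalised counts of LINC00657, LINC00152, LINC00669 and LINC00929 in every library. Points are libraries (blue, DMSO; orange, tazemetostat), bars are means of 3 and whiskers SD, on axes that start at 0; for LINC00152 and LINC00669 the 2 treated WT means lie farthest from their controls, at 4.07-fold higher and 3.392-fold lower.

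LINC00205 rose in WT only, from 339.8, 298.8 and 333.1 to 657.3, 629.5 and 705.6 (log2 change 1.03), with changes of 0.17 in E1 and 0.12 in F2. Its response differences of -0.87 and -0.92 were under the fold limit, and the WT change was 0.88 with libraries scaled to the same total, 0.98 without WT DMSO replicate 2 and 0.99 without WT tazemetostat replicate 3. LINC00977 also passed in WT alone (1.59), at 11.31 to 19.22 normalised counts in DMSO and 33.25 to 57.05 with tazemetostat. In both clones its treated libraries also lay above every control, without passing the threshold. They were at 54.16 to 54.65 against 25.1 to 40.18 in E1, and at 20.19 to 24.05 against 7.261 to 16.99 in F2. LINC00173 (-1.08) and LINC00852 (-1.09) fell in WT alone. Neither passed without WT DMSO replicate 3 (-0.88 and -0.99), nor LINC00173 without WT tazemetostat replicate 2 (-0.86).

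In F2 alone, LINC00923 fell from 201.8, 195.0 and 286.4 to 101.0, 104.0 and 117.5 (log2 change -1.06, or -0.88 without DMSO replicate 3). LINC01003 fell from 155.7, 169.1 and 142.0 to 70.88, 59.55 and 68.45 (-1.22). LINC00518 rose from 6.147, 6.224 and 8.494 to 17.48, 21.2 and 22.2 (1.43), and LINC00920 rose by 1.14, or 0.98 without F2 tazemetostat replicate 1. LINC00920 averaged 7.949 over the 9 DMSO libraries, so its rise is in part built into the choice of members. TFAP2A, the transcription factor gene next to LINC00518, had log2 changes of 1.44, 0.46 and 2.74 for WT, E1 and F2, where LINC00518 had 0.48, -0.24 and 1.43.

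In E1 alone, LINC00304 fell by 2.25 on the log2 scale, from 53.58, 42.48 and 36.04 to 13.84, 3.868 and 10.36, and LINC00665 by 1.56. LINC00645 rose from 16.07, 13.51 and 24.35 to 36.2, 42.55 and 36.75 (1.09, or 0.92 without E1 DMSO replicate 2). The difference of LINC00645 from the WT response was 1.22 (adjusted p = 0.0049). For the other members that passed in a single line and are not named with a response difference, the difference from the WT response did not pass the threshold, and E1 was not tested against F2.

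**Figure D4:**
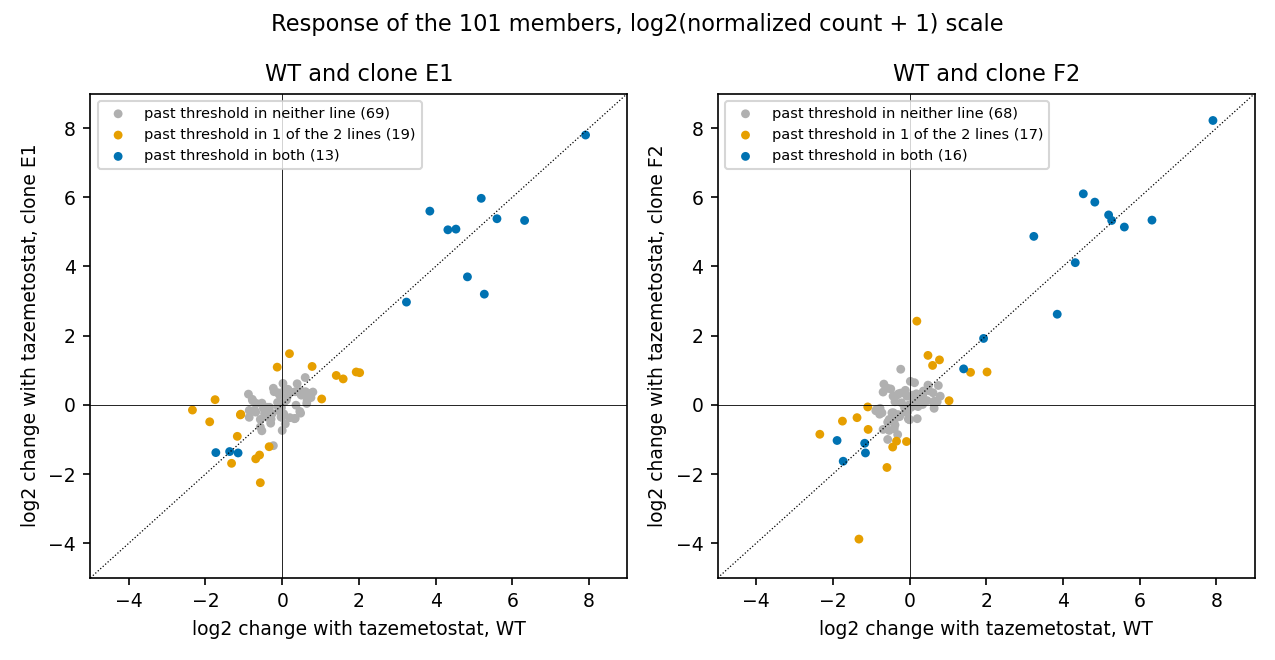
Log2 change with tazemetostat in WT (x axis) against E1 (left) and F2 (right) for the 101 members, on the log2(normalised count + 1) scale; the dotted line marks equal change. The change in WT runs from -2.34 for LINC01037 to 7.91 for LINC00842, and 13 members (E1) or 16 (F2) are past the threshold in both lines plotted; the WT libraries are shared by the panels.

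Of the members that rose in 2 lines, LINC00431 went from 13.1, 16.02 and 13.25 to 55.19, 45.83 and 70.19 in WT (log2 change 1.93) and from 19.46, 16.6 and 20.63 to 70.88, 72.67 and 78.62 in F2 (1.92). In E1 its change was 0.95. LINC01024 rose by 1.41 in WT and 1.04 in F2, the latter 0.85 without F2 tazemetostat replicate 1. LINC00242 rose by 1.48 in E1 and 2.42 in F2, and LINC01088 by 1.11 and 1.30. Both averaged under 10 over the 9 DMSO libraries (7.725 and 9.894), so their rises are in part built into the choice of members. Except for LINC00242 in F2, these calls of LINC00242 and LINC01088 were lost when single libraries were left out. LINC00242 in E1 had an adjusted p of 0.055 to 0.11 when any 1 E1 library was left out. LINC01088 in E1 was lost without DMSO replicate 1 (0.84), tazemetostat replicate 1 (0.91) or tazemetostat replicate 2 (adjusted p = 0.059), and LINC01088 in F2 without DMSO replicate 3 (0.85).

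Of the members that fell in 2 lines, LINC00634 fell in WT (-1.37) and E1 (-1.35, or -0.83 without E1 tazemetostat replicate 2). LINC00672 fell in E1 (-1.21) and F2 (-1.05, or -0.93 without F2 DMSO replicate 3 and -0.92 without F2 tazemetostat replicate 1). LINC00899 fell in WT (-1.17, or -0.99 without WT DMSO replicate 3 and -0.83 without WT tazemetostat replicate 1) and F2 (-1.11, or -0.91 without F2 DMSO replicate 1 and -0.87 without F2 tazemetostat replicate 3). LINC01036 in F2 was -1.03, and -0.99, -0.97 and -0.92 without F2 DMSO replicate 1, F2 DMSO replicate 3 and F2 tazemetostat replicate 2.

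Without drug, the share of members that differed from WT lay above that of all rows tested in E1 (6.93%) and below it in F2 (0.99%). Neither gap was tested. In E1 7 members differed from WT, 5 higher (4.95%) and 2 lower (1.98%), against 5.04, 2.35 and 2.69% of all rows tested. In F2 1 member differed, 1 higher and 0 lower, against 2.98, 0.885 and 2.09%, and with no fold limit 12 members had an adjusted p under 0.05. At an unadjusted p under 0.05 (limma), 9 members were lower in F2 and 13 higher, and edgeR and DESeq2 also called 0 members lower. The counts without a fold limit have no share of all rows beside them. Beside LINC00052, the largest difference in E1 was in LINC00304, at 53.58, 42.48 and 36.04 against 8.735, 8.482 and 17.03 in WT (log2 difference 1.91). LINC00518 had 39.29, 46.34 and 61.37 in E1 against 16.6, 12.25 and 12.3 in WT (1.75, adjusted p = 4.9e-06), and 6.147 to 8.494 in F2. LINC00672 had 50.01, 55.99 and 64.29 against 21.84, 14.14 and 29.34 (1.39). LINC00977 was 1.18 and LINC00649 1.12 higher, and LINC00313 was 1.30 lower (log2 difference -1.30).

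None of the 7 E1 calls was also called in F2. LINC00672 lay above WT without overlap in F2 too (40.98, 33.19 and 48.54), but was not past the threshold. LINC00052 and LINC00518 lay on the opposite side of WT in F2 from E1, without overlap. The single F2 call was LINC01036, at 29.71, 23.86 and 30.34 against 7.861, 15.08 and 17.03 in WT (1.07, adjusted p = 0.025). It was lost without WT DMSO replicate 1 (0.76) and without F2 DMSO replicate 1 or 3 (adjusted p = 0.065 and 0.078). LINC01036 in E1, at 29.47, 19.31 and 19.48, also lay above every WT library but was not called. In E1, LINC00304 was lost without WT DMSO replicate 1 or 2 or E1 DMSO replicate 1 (adjusted p = 0.051 to 0.055), LINC00313 without each of WT DMSO replicates 1 and 3 and E1 DMSO replicates 1 and 2, and LINC00649 without WT DMSO replicate 1 (1.00) or E1 DMSO replicate 3 (0.96). The comparisons of E1 and F2 share the 3 WT libraries.

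What the members share with the genes beside them was counted next. Of the 100 members matched to a RefSeq entry, 17 overlap their nearest protein-coding gene, whether or not that gene was tested. For 75 of the 100 the nearest protein-coding gene was itself tested. In WT, 10 members that rose had a tested neighbour, and 6 of those neighbours rose and 0 fell. Of 60 members that passed no threshold, 5 neighbours rose and 2 fell. In E1, 4 of 10 neighbours of rising members rose, against 4 of 58 for members without a call, and in F2 7 of 11 against 4 of 57. For falling members the neighbour fell in 1 and rose in 2 of 5 cases in WT, fell in 0 and rose in 1 of 7 in E1, and fell in 1 and rose in 2 of 7 in F2. Both rises in WT are the same gene, PLA2G4A, counted for LINC01036 and for LINC01037, and PLA2G4A is also among those in F2. It had 0 reads in every DMSO library, so it could only rise. The rise in E1 is NTRK3 beside LINC00052, from 0 in the E1 DMSO libraries to a mean of 3.19. The fall of LINC00052 in E1 was itself lost with edgeR and DESeq2. Of the rising members counted here, 7 in each line had 3 reads or fewer in all DMSO libraries, as did 4 of the neighbours that rose in each line. Such rows enter the table of tested rows only through tazemetostat, so they could only rise, and the gap between rising and other members is in part set by the level of 10.

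The neighbours SYNPR, SYT16, RIPK4 and ANXA8L1 had at most 3 reads in any DMSO library, as did their LINC partners. SYNPR, a synaptic vesicle protein gene beside LINC00698, averaged 171.2 (SD 1.77, n = 3), 334.9 (SD 26.7) and 99.23 (SD 14.7) with tazemetostat for WT, E1 and F2. SYT16, beside LINC00643, averaged 119.5 (SD 22.6), 407.7 (SD 31.5) and 41.18 (SD 8.09), and followed the same E1, WT, F2 order as LINC00643. RIPK4, a kinase gene beside LINC00479, averaged 25.25 (SD 11.2), 36.17 (SD 4.71) and 29.44 (SD 9.46) and did not follow the order of LINC00479. ANXA8L1, beside LINC00842, averaged 31.47, 48.39 and 94.37. ANKRD10, beside LINC00431, was well expressed in DMSO, at a mean of 5055.3 in WT (SD 646.3, n = 3), and passed the threshold in WT (1.12) and F2 (1.17) but not in E1 (0.38). Whether reads from a neighbouring gene enter a member's count was not tested.

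Among members with a RefSeq promoter, those that responded held fewer CpGs than the others. A promoter was at hand for 72 members. These include 12 of the 20 that rose in any line and 13 of the 16 that fell. The observed over expected CpG ratio was at least 0.6 in 40 of them (55.6%), against 49.1% of all 35116 promoters, 26.3% of those of lncRNA genes and 62.4% of those of protein-coding genes. Among members that passed the threshold in no line it was 31 of 47 (66.0%, median ratio 0.77). It was 4 of 12 (33.3%, median 0.26) among members that rose in any line and 5 of 13 (38.5%, median 0.47) among those that fell. Both shares lie above that of lncRNA genes in general. Of the 10 that rose in every line, 6 had a promoter, and 2 of these, LINC00842 (0.89) and LINC00511 (0.79), were at or above 0.6. LINC00595 was at 0.16, LINC00327 at 0.12, LINC00479 at 0.19 and LINC00856 at 0.39. These are counts over members, with no test of the difference and no account of gene type.

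**Figure D5:**
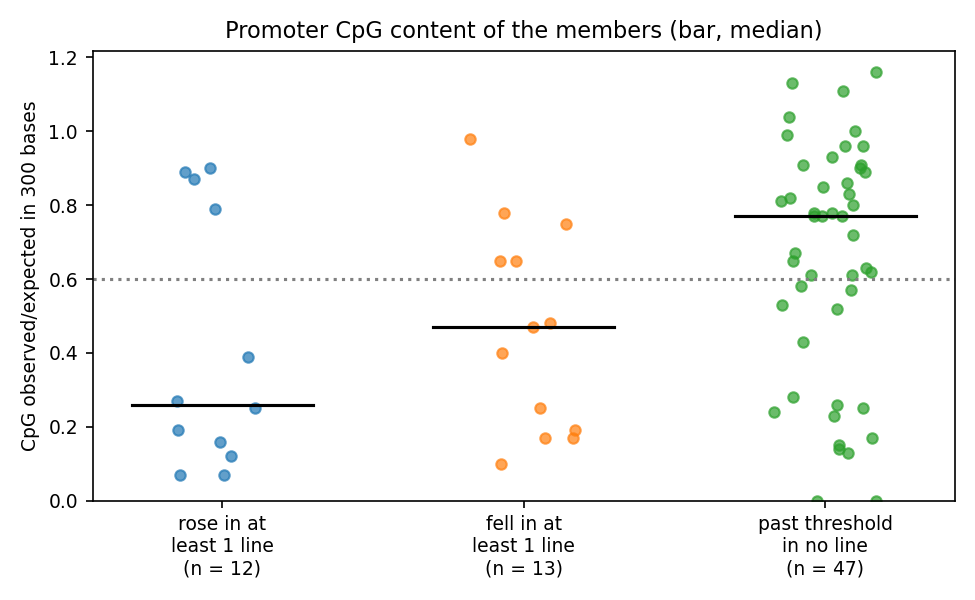
Observed over expected CpG ratio in the 300-base promoter window of 72 members, by response to tazemetostat. Points are members, bars are medians (0.26, 0.47 and 0.77) and the dotted line marks 0.6; the members past the threshold in no line lie mostly above it.

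RefSeq now types 11 of the 101 members as protein-coding, each matched by a synonym. Short open reading frames have been found in some LINC transcripts. LINC00610 matched COMMD9 and LINC00085 matched SPACA6, and whether such synonym matches hold for the counted rows was not checked. None of the 11 rose in any line, where 14.9, 12.9 and 15.8% of all members rose in WT, E1 and F2. LINC00634 fell in WT and E1 and LINC00672 in E1 and F2. LINC00116 encodes mitoregulin (MTLN), LINC00493 the mitochondrial small integral membrane protein SMIM26 and LINC00998 SMIM30, and all 3 stayed under the threshold. LINC00998 had means of 1473.2 (SD 105, n = 3) and 856.5 (SD 69.2) in WT without and with tazemetostat (log2 change -0.78), with changes of 0.16 in E1 and -0.27 in F2. LINC00493 changed by -0.12, 0.07 and -0.21. The 86 typed lncRNA held 14 of the 15 rises in WT, 12 of 13 in E1 and 15 of 16 in F2, and the remaining rise in each was the pseudogene LINC00643. As 86 of the 101 members are typed lncRNA, most rises would fall there in any case. The types were not compared by a test.

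A list of 55 other long noncoding RNAs with names of their own was set beside the members. It was written with earlier results of these data known. Of its 42 tested genes, 6 rose and 3 fell in WT, 3 and 2 in E1, and 4 and 1 in F2. UCA1 changed by 10.27, 9.24 and 11.99 on the log2 scale, more than any LINC-named member, and RMST by 2.86, 2.55 and 2.47. HOTAIR, which is known for binding Polycomb components, fell by -1.30, -1.60 and -1.87. DLEU2 fell in WT (-2.47) and its response exceeded that of WT by 2.11 in clone E1 and 1.49 in clone F2, the same order as LINC00669.

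The members' median pooled SD within groups was 0.29 on the log2 scale, against 0.14 over all rows tested, at a median level of 44.93 normalised counts. For 17 members (16.8%) the deviations from the group means over the 18 libraries ran with those of MALAT1 at a Pearson's r of at least 0.7, against 6.54% of the other rows tested, while 4 members had an r of at most -0.7 against 9.81% of the other rows. The highest were LINC01021 (0.96), LINC00969 (0.94) and LINC00342 (0.93). LINC01021 had 712.7, 762.5 and 1216.0 normalised counts in WT with DMSO and 1178.1, 1034.2 and 2070.2 in F2 with DMSO, so that 1 library stood above the other 2 in each. LINC00910 had the widest spread of the 101, with a pooled SD of 0.99 and values from 2.075 to 36.61. MALAT1 itself passed the threshold in F2 with tazemetostat (log2 change 1.11). Of the members that passed in a single line, LINC00173 (r = 0.83), LINC00304 (0.77), LINC00665 (0.74) and LINC00923 (0.86) ran with MALAT1 in this way. LINC00152, which passed in WT alone, ran against MALAT1 (r = -0.84). The others with an r of at most -0.7 were LINC00094 (-0.79), LINC00493 (-0.78) and LINC00998 (-0.75). The part of library quality or nuclear RNA content in their values was not tested.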

How the data were processed

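Poly(A) RNA of 18 G401 cultures was sequenced in paired ends from stranded libraries, as the labels' protocols state. The authors deposited 1 table of 55765 symbols by 18 samples, in the unit signal here: read counts of each gene over a scaling factor of the library. The submitters' processing notes name Trim Galore 0.4.4, STAR 2.6.0a, HTSeq, DESeq2 and hg19. The annotation and the strand setting are not given in the sources used here, so overlapping and antisense transcripts could share reads. Multiplying by this factor recovered whole reads in 100% of cases within a tolerance of 1e-06, with factors of 0.812 to 1.1449. A floor of 3 reads covers counting error only.

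Tests used limma 3.58.1 (R 4.3.3; lmFit, eBayes with trend) on log2(value + 1) for the 16154 rows with a mean of at least 10, in 1 fit of 6 group means, with adjustment over all rows of a contrast. Log2 changes understate the change of low genes. The exact permutation test of 3 against 3 libraries cannot go below p = 0.1 and was not used for calls. On simulated counts for 16154 genes the fit recovered 97% of genes changed by 1.5 on the log2 scale in the WT treatment contrast and 91% in the E1 response difference. The simulation gave all genes the same dispersion and drew the changed genes from all rows tested. These shares do not describe the members, whose median pooled SD was 0.29 against 0.14 over all rows. Recovery among the members was not simulated. Replicates are labelled biological, and no pair of libraries agreed within sampling noise (chi-square per gene 2.32 to 61.88).

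The members and lists were chosen with earlier results of these data known. Members named with values were those with the largest changes past the threshold and a mean of at least 50, the 5 most abundant, and a list of known LINC genes. The others, among them the members silent in DMSO, were named after their values were seen. Replicate numbers are shared between groups. The deviations of same-numbered libraries correlated above 0.1 in all 3 pairs for F2 against WT in DMSO (0.182, 0.108 and 0.375), which counts as pairing there. The same held between F2 in DMSO and WT with tazemetostat (0.164, 0.168 and 0.372), which both enter the F2 response difference, but not between the treated F2 libraries and the others. No other pair of groups compared met it. The block fit, with replicate effects shared by all 6 groups, changed no count of calls. It does not model pairing of only some groups, and the part of such pairing in the F2 comparisons was not tested. Alternatives were other pseudocounts (0.5, 5), filters, scalings, groups in the fit, a replicate block, edgeR 4.0.16, DESeq2 1.42.0 on the recovered counts, and leaving out each library. RefSeq (GRCh38.p14) gave current names (62 by symbol, 38 by synonym), neighbours and promoters. Plots used matplotlib 3.10.9 (Python 3.11.15). Values of 1 marker gene and 1 neighbouring gene are not reported here.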

Additional observations from a re-analysis of the deposited data

Results flagged for a closer look

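The responses of the clones to tazemetostat differed from that of WT for 9 members in E1 and 8 in F2, by a test of the difference itself. In E1 the difference in log2 change was -2.08 for LINC00327, -1.13 for LINC00479, -1.10 for LINC00152, 1.19 for LINC00176, 1.22 for LINC00645, 1.40 for LINC01036, 1.75 for LINC00643, 1.90 for LINC00669 and 2.19 for LINC01037. In F2 it was -2.56 for LINC00052, -1.22 for LINC00929, -1.07 for LINC00152, 1.27 for LINC00999, 1.29 for LINC00669, 1.49 for LINC01037, 1.57 for LINC00958 and 2.23 for LINC00242.

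Several of these calls were lost when any of certain single libraries was left out. That of LINC00052 in F2 was lost in 12 of 12 such fits (adjusted p = 0.059 to 0.078, log2 difference -2.63 to -2.52), with a pseudocount of 0.5 (0.063), without the filter (0.071) and with the same total (0.052), and edgeR called it (4.1e-07). That of LINC00242 in F2 was lost in 8 of 12 fits (WT DMSO replicates 1 and 3, WT tazemetostat replicates 1 and 3, F2 DMSO replicate 3 and each F2 tazemetostat replicate). It dropped to 1.21 without F2 DMSO replicate 3, which had 0 reads, and was lost with edgeR (0.061), DESeq2 (0.057), a pseudocount of 0.5 (0.069), no filter (0.10) and only the groups compared (0.072).

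That of LINC01036 in E1 was lost in 6 of 12 fits (WT DMSO replicates 2 and 3, WT tazemetostat replicates 1 and 2, E1 DMSO replicate 2 and E1 tazemetostat replicate 2; adjusted p = 0.053 to 0.067). It was also lost with a pseudocount of 5 (0.79, adjusted p = 0.068), no filter (0.077), only the groups compared (0.052) and DESeq2 (0.058). That of LINC00479 in E1 was lost without any of the 3 WT DMSO replicates, WT tazemetostat replicate 2 or E1 tazemetostat replicate 1, and with a pseudocount of 5 (-0.92), no filter (adjusted p = 0.15), only the groups compared (0.07) and DESeq2 (0.66). That of LINC00958 in F2 was lost in 6 of 12 fits (WT DMSO replicate 3, WT tazemetostat replicates 2 and 3, F2 DMSO replicates 1 and 3 and F2 tazemetostat replicate 2; log2 difference 1.06 to 1.53). That of LINC01037 in F2 was lost in 7 of 12 fits (WT DMSO replicates 1 and 3, WT tazemetostat replicates 1 and 2, F2 DMSO replicate 2 and F2 tazemetostat replicates 2 and 3; 1.08 to 1.54).

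LINC00327, LINC00479, LINC00643 and LINC00958 had 3 reads or fewer in every DMSO library, so these differences rest on the treated levels, and edgeR called none of the 4 (adjusted p = 0.48, 1.0, 1.0 and 0.37). LINC00176, now C20orf204, had 68.13, 68.8 and 100.3 normalised counts in WT with DMSO and 40.4, 36.48 and 49.26 with tazemetostat, against 41.97, 37.65 and 43.84 and then 74.53, 47.39 and 37.69 in E1. Without E1 tazemetostat replicate 1 its difference was 0.92. LINC00999 had 69, 63.14 and 59.62 and then 38.43, 39.28 and 41.87 in WT, and 51.22, 50.83 and 71.59 and then 91.26, 78.72 and 92.5 in F2, a move in opposite directions, neither past the fold limit by itself.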

How the results depend on the processing

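Of 95 calls on members, 63 held in every alternative run that tested them, 32 were lost in at least 1, and 0 reversed. The run with a mean of at least 50 tested only 31 of the 95. The run with no fold limit could lose none, as it only loosened the rule.

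In the order WT, E1 and F2 treatment, E1 and F2 against WT in DMSO, and E1 and F2 response differences, a mean of at least 50 left 8, 5, 8, 2, 0, 3 and 5 calls, where fewer members are tested. With no fold limit there were 52, 43, 45, 24, 12, 25 and 19. Leaving out 1 library gave 22 to 25, 17 to 22, 23 to 29, 4 to 7, 0 to 3, 8 to 11 and 4 to 9. The count of 4 came without WT DMSO replicate 1 in the first case and without F2 tazemetostat replicate 2 in the second, where WT DMSO replicate 1 gave 5. For F2 against WT in DMSO, leaving out WT DMSO replicate 1 gave 0, WT DMSO replicate 3 gave 2 and F2 DMSO replicate 2 gave 3. That comparison also had 0 calls with a pseudocount of 5, no filter, or only the groups compared, and the F2 response difference 5 with a pseudocount of 0.5, 4 without the filter, 5 with edgeR and 5 with DESeq2. The cause was not tested. The fit with replicate number as a block gave 24, 21, 25, 7, 1, 9 and 8 calls, and all 95 calls held under this block.

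Small changes that were not calls turned sign: LINC00467 (-0.11) and LINC00963 (-0.004) in WT with the same total, LINC00116 in E1 without E1 DMSO replicate 3 (-0.07; 1 library left out in turn gave -0.07 to 0.52), LINC00493 in E1 without E1 DMSO replicate 1 (-0.05) or E1 tazemetostat replicate 2 (-0.005; range -0.05 to 0.13), LINC00667 in F2 without F2 tazemetostat replicate 2 (0.001; range -0.11 to 0.001), and LINC00662 in F2 with the same total (-0.02), without F2 DMSO replicate 3 (-0.04), without F2 tazemetostat replicate 2 (-0.004; range -0.04 to 0.04) and with edgeR (-0.002). Against groups at 0 reads only a lower bound of the fold could be given.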
